A study of Mus musculus with 9 samples.

Results

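Interferon-stimulated genes are genes whose transcription rises when a cell senses an interferon. The set described here held 39 such genes. A rule lists their symbols, and each matched 1 of the 55487 gene rows deposited for every library. The rule uses no measured value, but the symbols were chosen with earlier results of these data known. The genes were measured by bulk RNA-seq in whole ovaries of C57BL/6 mice carrying an oocyte-specific PIK3CA* knock-in. There were 3 libraries at postnatal day 8, 3 at day 50 and 3 at day 65. All 9 libraries carried the knock-in, so the comparisons are between ages of 1 genotype, and ovaries without it were not analysed here. The series design calls the tissue tumor samples, and no source used here names the promoter that restricts the knock-in to oocytes. Whether each library came from its own animal is not stated in the labels. The p-values set the difference between ages against the spread among libraries of 1 age, and that spread may therefore be technical.

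Interferons bind receptors on the cell surface and activate the kinases Jak1 and Tyk2, which phosphorylate transcription factors such as Stat2. A complex that holds Stat2 and Irf9 binds the interferon-stimulated response element in promoters. Type II interferon acts mainly through another promoter element, the gamma-activated site. The induced proteins sense viral RNA, block its translation or copying, trap virions at membranes, or damp the response again. Interferon epsilon, encoded by Ifne, is known from the epithelium of the mouse female reproductive tract.

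The interferon-stimulated response element was searched for in RefSeq promoter windows of build GRCm38.p6, each running from 250 bases before to 50 bases after an annotated gene start. Its core, GAAANNGAAA on either strand, was present in the window of 16 of the 30 members that had one (53.3%), and in 3.99% of 27025 genes with a window. The gamma-activated site, searched for as TTCNNNGAA on either strand, was present in 10 of the 30 (33.3%) and in 9.55% of all genes. A match describes the letters of the window and says nothing of binding. The 5 windows below were chosen after the values were seen, to set members that moved in different directions side by side, and the capitals mark each response element core. In Bst2 and Isg15 cores overlap, and in Gbp2 and Ifit1 they lie on the other strand and appear as the reverse complement.
Bst2, chr8:71537423-71537722, minus strand: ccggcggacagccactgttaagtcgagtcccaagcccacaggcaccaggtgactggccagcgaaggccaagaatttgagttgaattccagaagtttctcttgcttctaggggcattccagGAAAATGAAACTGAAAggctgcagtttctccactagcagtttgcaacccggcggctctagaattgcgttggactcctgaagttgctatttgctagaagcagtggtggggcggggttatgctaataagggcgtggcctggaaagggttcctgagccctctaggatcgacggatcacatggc
Ifitm3, chr7:141010695-141010994, minus strand: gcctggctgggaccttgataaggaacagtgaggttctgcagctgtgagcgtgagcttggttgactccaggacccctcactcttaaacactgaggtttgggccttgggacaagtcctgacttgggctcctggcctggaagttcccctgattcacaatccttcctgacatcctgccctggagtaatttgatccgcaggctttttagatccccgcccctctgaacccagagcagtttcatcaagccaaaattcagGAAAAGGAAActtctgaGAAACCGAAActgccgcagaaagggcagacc
Gbp2, chr3:142620413-142620712, plus strand: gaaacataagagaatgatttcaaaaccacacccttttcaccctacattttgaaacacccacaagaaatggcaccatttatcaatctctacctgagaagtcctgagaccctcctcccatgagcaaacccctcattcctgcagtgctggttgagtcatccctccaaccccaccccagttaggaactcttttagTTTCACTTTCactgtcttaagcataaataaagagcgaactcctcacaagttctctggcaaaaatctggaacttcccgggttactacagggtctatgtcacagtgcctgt
Ifit1, chr19:34640639-34640938, plus strand: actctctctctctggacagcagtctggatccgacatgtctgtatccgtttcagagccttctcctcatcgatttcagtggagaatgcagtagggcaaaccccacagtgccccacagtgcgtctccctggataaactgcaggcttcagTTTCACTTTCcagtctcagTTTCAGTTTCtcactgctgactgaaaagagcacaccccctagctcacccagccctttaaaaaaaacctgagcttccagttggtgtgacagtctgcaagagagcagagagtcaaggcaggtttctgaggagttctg
Isg15, chr4:156200769-156201068, minus strand: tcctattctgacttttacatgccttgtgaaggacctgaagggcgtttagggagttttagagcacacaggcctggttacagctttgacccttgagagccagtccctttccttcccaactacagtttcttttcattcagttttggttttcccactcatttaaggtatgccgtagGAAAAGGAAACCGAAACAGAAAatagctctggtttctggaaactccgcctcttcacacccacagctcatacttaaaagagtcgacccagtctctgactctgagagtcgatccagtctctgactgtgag
All 5 windows carried the core, starting 130 bases before the gene start in Bst2, 104 bases before it in Ifit1, 78 before it in Isg15 and 59 before it in Gbp2, and 2 bases into the gene in Ifitm3. The genes behind them did not move together from day 50 to day 65, when Bst2 and Ifitm3 rose, Gbp2 and Ifit1 fell and Isg15 did not pass the test. Among tested members with the core, 3 of 15 rose and 8 fell over that interval, when 27.5% of all tested genes were called higher and 28.4% lower. Among tested members with a window and no core, 3 of 14 rose and 6 fell.

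Each library held 14116908 to 18868831 expected counts in total, and 17747 genes passed the filter on low counts, 37 of the 39 members among them. Levels are given as CPM, the library's counts rescaled to a common total with TMM factors. Calls use edgeR's quasi-likelihood test with p-values adjusted by Benjamini-Hochberg over the 17747 genes and a threshold of 0.05. Spearman correlations over genes were 0.958 to 0.992 between libraries of 1 age and 0.775 to 0.908 between ages. Day 8 replicate 1 and the 3 day 65 libraries stood apart from the other 5. Ribosomal protein genes took 12.2% of counts in the former and 10.6% to 13.7% at day 65, against 3.28% to 6.26% elsewhere. Weighted by TPM, transcripts averaged 1203 bases of effective length in the former and 1071 to 1195 bases at day 65, against 1564 to 1750 bases elsewhere. At an equal share of counts, the TPM of a gene is lower in a library where this weighted length is shorter. Summed TPM of the oocyte markers spanned 1710 to 3297, 68.1 to 112 and 27.8 to 64.4 in age order, and that of granulosa markers 543 to 691, 6173 to 7175 and 1522 to 2017. In whole tissue, fewer cells of a type and less RNA per cell cannot be told apart.

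From day 8 to day 50 the set moved mostly upward. The background rate over all genes was 19.5% called higher and 21.4% called lower. Of the 37 tested members 19 rose (51.4%), only Ifitm1 fell (2.7%) and 17 did not pass the test. The median log2 fold change was 0.55 over the members and -0.04 over all genes. All 4 transcription factors rose, as did 5 of the 6 genes of the ISG15 and ubiquitin system. Without day 8 replicate 1 the counts were 19 higher and 2 lower, the second being Samhd1 (log2 -0.55).

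From day 50 to day 65 the set split. The background was 27.5% higher and 28.4% lower. Of the 37 members 6 rose (16.2%) and 16 fell (43.2%), with a median log2 fold change of -0.51 against -0.06 over all genes. All 3 IFIT genes, the 3 guanylate-binding genes and 2 of the 3 RNA sensors fell, whereas 3 of the 5 membrane and lipid effectors rose. Of the 6 members that rose, mean TPM also rose for Bst2, Ifitm3 and Oasl1. It fell for Ifitm2 (900 to 730), Trim25 (24.9 to 20.2) and Ifi35 (21 to 18.8). The weighted effective length went from 1650 to 1750 bases at day 50 to 1071 to 1195 bases at day 65. This lowers TPM at an equal share of counts, so TPM and CPM are not on 1 scale between these ages. Scaled by library size alone the split was 3 higher and 17 lower, and this scaling moved the median of all genes to -0.31. The share called in either direction was 59.5%, against a background of 55.9%.

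Across the whole interval, day 65 against day 8, 12 members rose (32.4%) and 10 fell (27%), against a background of 29.7% higher and 32.6% lower. The share called in either direction, 59.5%, was near the background of 62.3%. The median log2 fold change was 0.19 for the members and -0.05 for all genes. Removing each library's trend of expression on gene length gave 17 higher and 8 lower, and removing trends on length and GC content gave 18 higher and 7 lower. Over all 17747 genes the balance of calls shifted the same way. Their counts went from 5267 higher and 5790 lower to 6974 and 4342 with the former, and to 7080 and 4312 with the latter. Without day 8 replicate 1 there were 12 higher and 11 lower members. The comparisons share libraries, day 50 with both steps and day 8 and day 65 with the whole interval, so their values are given side by side and not correlated.

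By step, 5 members rose at both steps (13.5% of those tested, against 4.32% of all genes), namely Bst2, Ifitm2, Ifitm3, Oasl1 and Trim25. A further 7 rose to day 50 and fell to day 65 (18.9% against 7.98%), namely Ddx58, Dtx3l, Ifi44, Ifit3, Irf9, Parp9 and Rtp4. Another 7 rose to day 50 and were not called afterwards (18.9% against 7.16%), and 9 were not called at first and then fell (24.3% against 16%). Ifi35 rose in the second step alone (2.7% against 16.5%). The 7 members called in neither step (18.9% against 26.7%) were Dhx58, Isg15, Mx2, Oas1a, Rsad2, Samhd1 and Xaf1.

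**Figure D1:**
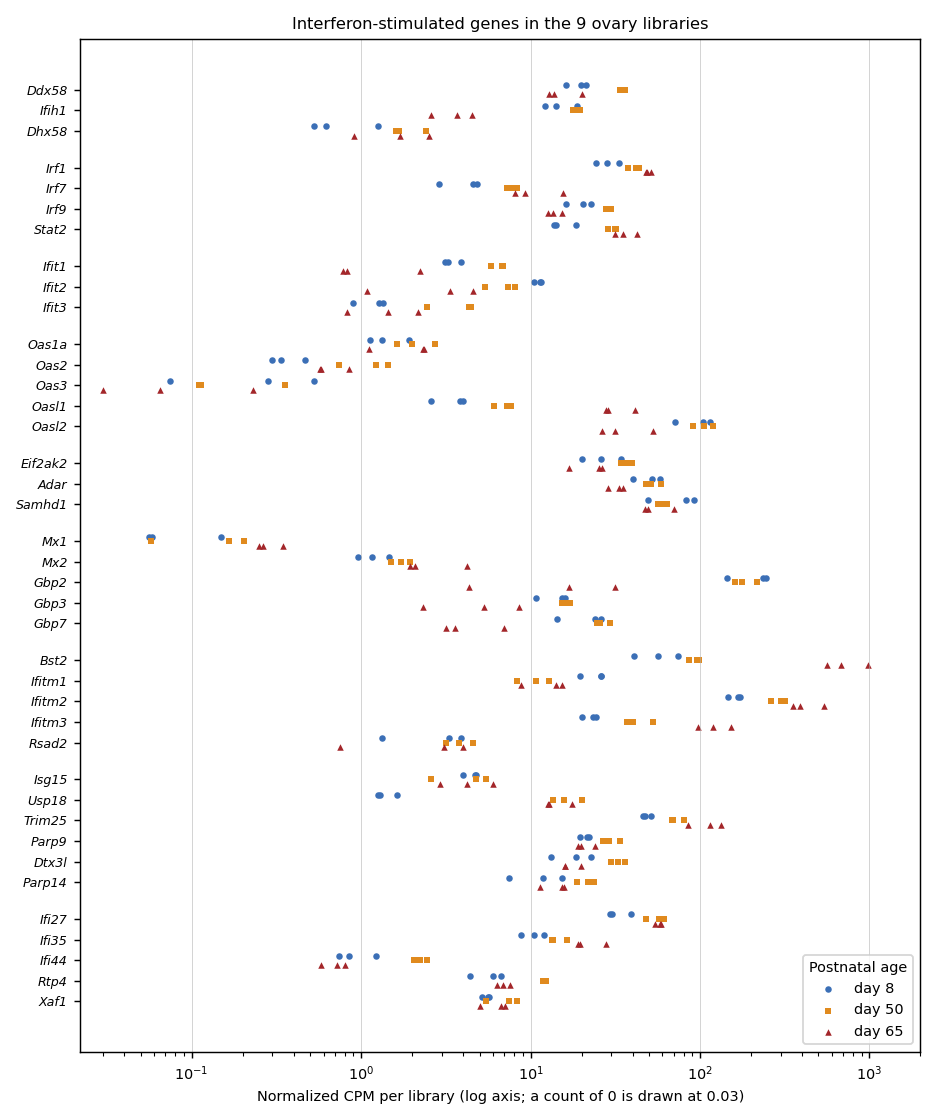
Normalized CPM of all 39 members in the 9 libraries, on a log axis, ordered by the role of the protein, with 1 symbol per library and colours and shapes for the 3 ages. Bst2 reached 563 to 983 CPM at day 65, whereas Gbp2, with 162 to 218 CPM at day 50, had 4.31 to 31.7 CPM.

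**Figure D2:**
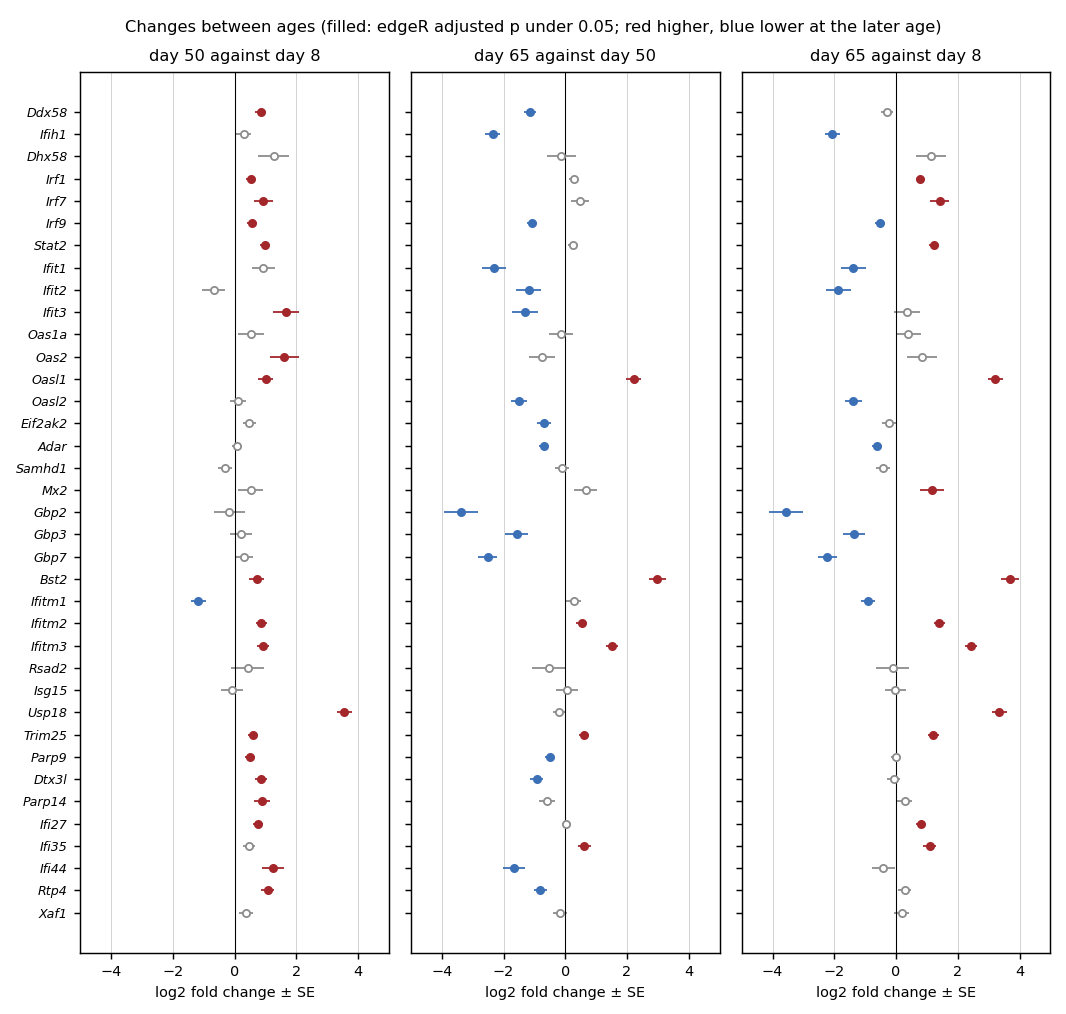
Log2 fold change with its standard error for the 37 tested members in the 3 comparisons of ages, from edgeR. Filled symbols passed an adjusted p under 0.05, red for 19, 6 and 12 members higher at the later age and blue for 1, 16 and 10 lower, and open symbols did not pass.

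Of the 3 sensors of viral RNA, Ddx58 and Ifih1 fell after day 50. Ddx58 encodes RIG-I, Ifih1 encodes MDA5 and Dhx58 encodes LGP2, RNA helicases of the cytoplasm of which the former pair signals to induce interferon. Ddx58 stood at 16.2, 21.2 and 19.9 CPM at day 8, at 33.6, 33.7 and 36.1 CPM at day 50, and at 12.9, 13.8 and 20.0 CPM at day 65. Its day 50 libraries were above all others, with a log2 fold change of 0.85 ± 0.18 (SE, adjusted p = 0.00437) to day 50 and -1.14 ± 0.19 (adjusted p = 0.000634) from there to day 65. Ifih1 measured 12.2, 18.9 and 14.2 CPM at day 8, 19.6, 18.2 and 17.7 CPM at day 50, and 2.57, 3.66 and 4.54 CPM at day 65. It overlapped between the earlier ages, did not pass the test there, and then fell 5.1-fold (log2 -2.35 ± 0.25, adjusted p = 6.70e-05). Dhx58 was scarce at 0.524 to 2.53 CPM and passed in no comparison in the main setting. With the length trend removed Dhx58 passed to day 50 (log2 1.38, adjusted p = 0.0322) and between day 65 and day 8 (1.21, adjusted p = 0.0417). With trends on length and GC content removed, the late log2 fold change of Ddx58 was -0.53 and that of Ifih1 -1.56, both still past the threshold.

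The transcription factors among the members rose by day 50 and then parted in CPM. Stat2, a signal transducer of type I interferon, was 13.8, 18.5 and 14.1 CPM at day 8, 28.8, 31.4 and 31.9 CPM at day 50, and 42.3, 31.5 and 35.1 CPM at day 65. Day 8 lay below both later ages, which overlapped each other, and the gain to day 50 was 1.98-fold (log2 0.99 ± 0.16, adjusted p = 0.000915). Its partner Irf9 went from 16.2, 22.9 and 20.3 CPM through 30.0, 29.4 and 27.8 CPM to 12.6, 15.4 and 13.5 CPM. The 3 ages of Irf9 did not overlap, and it rose by log2 0.55 ± 0.16 (adjusted p = 0.0177) and then fell by 1.07 ± 0.16 on the log2 scale (adjusted p = 0.000398). Day 65 against day 8, log2 -0.52 with adjusted p = 0.0167, was not past the threshold without day 8 replicate 2 (-0.37), day 8 replicate 3 (-0.45), day 65 replicate 1 (-0.45) or day 65 replicate 3 (-0.49), nor with the length trend removed (-0.27).

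In CPM Irf1 and Irf7 showed no late fall. In age order mean TPM was 26.1, 40.1 and 24.8 for Irf1 and 4.17, 9.62 and 8.26 for Irf7. For Stat2 mean TPM was 7.71, 15.9 and 8.75. The shorter weighted effective length of the day 65 libraries enters these last values. The second step of Stat2 was log2 0.24 in the main setting, not past the threshold. It was a called rise with the length trend removed (0.79, adjusted p = 0.00314) and with trends on length and GC content removed (0.70, adjusted p = 0.00371). Irf1, an early activator downstream of interferon gamma, was 24.2, 33.3 and 28.2 CPM at day 8, 37.5, 43.7 and 41.8 CPM at day 50, and 47.8, 48.8 and 51.4 CPM at day 65. Its 3 ages did not overlap, with a 1.73-fold rise over the whole interval (log2 0.79 ± 0.14, adjusted p = 0.000729), while the second step alone did not pass (log2 0.27, adjusted p = 0.125). Scaled by library size alone, the first step did not pass for Irf1 (log2 0.48 after 0.52) or Irf9 (0.51 after 0.55). Irf7, which amplifies interferon production, was lower throughout at 4.60, 4.83 and 2.87 CPM, then 7.89, 8.30 and 7.24 CPM, then 15.6, 9.23 and 8.05 CPM. Only 1 day 65 library of Irf7 stood clearly above day 50, and the difference from day 8 was 2.67-fold (log2 1.41 ± 0.30, adjusted p = 0.0022). Its first step, log2 0.93 with adjusted p = 0.0304, was lost without day 8 replicate 3 (0.77), day 50 replicate 1 (0.97) or day 50 replicate 2 (0.93).

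The IFIT genes, a chromosome 19 cluster whose proteins bind viral RNA and block its translation, were low at every age, and all 3 fell from day 50 to day 65. Ifit1 was 3.11, 3.90 and 3.26 CPM at day 8, 6.81, 6.91 and 5.86 CPM at day 50, and 0.829, 0.785 and 2.24 CPM at day 65. No ages overlapped, the first step did not pass (adjusted p = 0.0664), and the late fall was 4.96-fold (log2 -2.31 ± 0.39, adjusted p = 0.000825), or -3.01 without day 65 replicate 3, while against day 8 it was -1.38, or -2.07 without that library and -0.76, not past the threshold, with trends on length and GC content removed. Ifit2 took another course, from 11.4, 11.5 and 10.5 CPM through 7.32, 5.41 and 8.10 CPM to 1.08, 4.58 and 3.33 CPM. Each age of Ifit2 lay below the one before, and day 65 was 3.66-fold below day 8 (log2 -1.87 ± 0.40, adjusted p = 0.00224). The late step of Ifit2, log2 -1.19 with adjusted p = 0.0266, was lost without day 50 replicate 1 (-1.14) or day 50 replicate 3 (-1.07) and with the length trend removed (-0.70). Ifit3 rose from 0.890, 1.28 and 1.35 CPM to 4.46, 4.35 and 2.45 CPM and fell to 0.829, 1.44 and 2.18 CPM. Its day 65 libraries overlapped day 8, and the late call (log2 -1.31, adjusted p = 0.0207) was lost without day 50 replicate 1 (-1.16), day 50 replicate 2 (-1.19), day 65 replicate 1 (-1.04) or day 65 replicate 2 (-1.28). Ifit3b, a near copy of Ifit3 with which reads could be shared, was at 0 to 0.972 CPM.

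The members of the OAS family lie on chromosome 5, and the neighbours Oasl1 and Oasl2, which lie apart from the Oas genes, went in opposite directions. Oas proteins make the oligoadenylate messenger that activates RNase L, and the Oasl proteins are relatives of which Oasl1 is known in mouse to repress translation of Irf7. Oasl1, at chr5:114923240-114937915, was 2.60, 3.84 and 3.99 CPM at day 8, 6.06, 7.30 and 7.70 CPM at day 50, and 41.5, 27.8 and 28.5 CPM at day 65. It rose at both steps without overlap, by 9.29-fold over the whole interval (log2 3.22 ± 0.24, adjusted p = 4.28e-06). Oasl2, at chr5:114896936-114912234 on the same strand, was 70.9, 115 and 104 CPM at day 8, 105, 119 and 91.0 CPM at day 50, and 26.5, 31.5 and 52.9 CPM at day 65. It began far above its neighbour and fell 2.83-fold after day 50 (log2 -1.5 ± 0.27, adjusted p = 0.00105), so that at day 65 mean TPM, which is comparable between genes, was 17.6 for Oasl1 and 20.2 for Oasl2 after 3.69 and 91.2 at day 8. Neither window held the response element core.

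Oas1a, Oas2 and Oas3 were scarce at every age. Oas2 went from 0.297, 0.466 and 0.338 CPM to 0.743, 1.45 and 1.22 CPM and then to 0.580, 0.851 and 0.575 CPM. Day 8 lay below the other ages, and the first step (log2 1.61 ± 0.46, adjusted p = 0.0177) was lost without day 8 replicate 1 (1.49), day 8 replicate 3 (1.59), day 50 replicate 2 (1.44) or day 50 replicate 3 (1.61). Oas1a, at 1.11 to 2.73 CPM over the 9 libraries, passed in no comparison. Oas3 was at 0 to 0.524 CPM, below the filter, and without the filter its log2 fold changes were -0.52 to day 50 (adjusted p = 0.772) and -0.89 to day 65 (adjusted p = 0.594).

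Several near copies of Oas1a were far more abundant at day 8 than Oas1a itself. Oas1c had 126 to 144 CPM at day 8 and 5.35 to 7.24 CPM at day 50, and Oas1h had 51.0 to 64.7 CPM and then 2.12 to 2.23 CPM, both called lower. Of the 13 tested near copies of members 7 fell by day 50 and none rose, and 9 of the 10 oocyte markers fell over the same step. Over all genes 21.4% were called lower and 19.5% higher in that step. The part of the oocytes in these levels was not tested. Reads that fit several Oas1 genes are divided by estimation, so the Oas1a level is uncertain.

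Among the other proteins that act on RNA, Eif2ak2 encodes the kinase PKR, Adar edits double-stranded RNA and Samhd1 depletes nucleotides. Adar measured 40.0, 58.4 and 52.0 CPM at day 8, 47.8, 51.4 and 59.0 CPM at day 50, and 28.6, 33.3 and 35.3 CPM at day 65. The earlier ages overlapped and day 65 lay below both, with a 1.63-fold difference from day 50 (log2 -0.70 ± 0.16, adjusted p = 0.00449). With the length trend removed that value turned to 0.05 and with the trends on length and GC content it was -0.09. Eif2ak2 was 20.2, 34.0 and 26.0 CPM, then 34.4, 36.6 and 39.9 CPM, then 26.4, 16.9 and 25.3 CPM. Its day 65 libraries lay below day 50 and within or below the range of day 8, and the call (log2 -0.69, adjusted p = 0.0194) was lost without day 50 replicate 3 (-0.64) or day 65 replicate 2 (-0.52), with the length trend removed (-0.09) and with both trends removed (0.08). Samhd1, at 47.1 to 92.7 CPM, passed in no comparison.

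The guanylate-binding genes, interferon-inducible GTPases that attack the vacuoles of intracellular microbes, included the member with the largest fall, Gbp2. Gbp7, Gbp3 and Gbp2 lie in this order on the plus strand of chromosome 3, from 142530342 to 142638008. Gbp2 was 144, 245 and 237 CPM at day 8, 176, 218 and 162 CPM at day 50, and 4.31, 16.9 and 31.7 CPM at day 65. The earlier ages overlapped fully, and the late fall was 10.4-fold (log2 -3.38 ± 0.55, adjusted p = 0.000686), or -4.11 without day 65 replicate 3, and against day 8 it was -3.55, or -4.27 without that library. Gbp7 was 14.3, 26.2 and 24.1 CPM, then 24.6, 25.6 and 29.5 CPM, then 3.15, 3.60 and 7.01 CPM. Its day 65 libraries lay below both earlier ages, which overlapped, with a 5.72-fold late fall (log2 -2.52 ± 0.32, adjusted p = 0.000169) that was -1.62 with trends on length and GC content removed. Gbp3 was 10.7, 15.9 and 15.3 CPM, then 16.2, 17.1 and 15.4 CPM, then 2.32, 5.30 and 8.57 CPM, a late fall of 2.97-fold (log2 -1.57 ± 0.37, adjusted p = 0.00459). In each of the 3 genes day 65 replicate 1 was the lowest library and replicate 3 the highest of that age.

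Markers of the surface epithelium, the mesothelial layer around the ovary, showed the same order of libraries. All 6 of them fell from day 50 to day 65, when 28.4% of all genes were called lower, and none was called before. Upk3b, a mesothelial membrane protein, was 329, 348 and 256 CPM at day 50 and 13.6, 56.7 and 97.0 CPM at day 65. Krt19, an epithelial keratin, was 252, 252 and 164 CPM and then 6.55, 28.5 and 76.2 CPM. Summed over the 6 markers, TPM spanned 961 to 1369 before and 19.3 to 227 after. This order of the day 65 libraries was not confined to these markers. The endothelial marker Kdr (18.5, 39.4 and 50.5 CPM) and the steroidogenic marker Cyp11a1 (72.3, 105 and 145 CPM) had it too. Lyz2, a macrophage marker, had the reverse (47.9, 37.9 and 31.8 CPM). Of the 16 members that fell in this step 12 were lowest in replicate 1 of day 65 and 10 were highest in replicate 3, whereas all 6 that rose were highest in replicate 1 and lowest in replicate 2. How many of all falling or rising genes had these orders was not counted, so whether they are particular to the members is not known. The part of the surface epithelium in these falls was not tested.

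**Figure D3:**
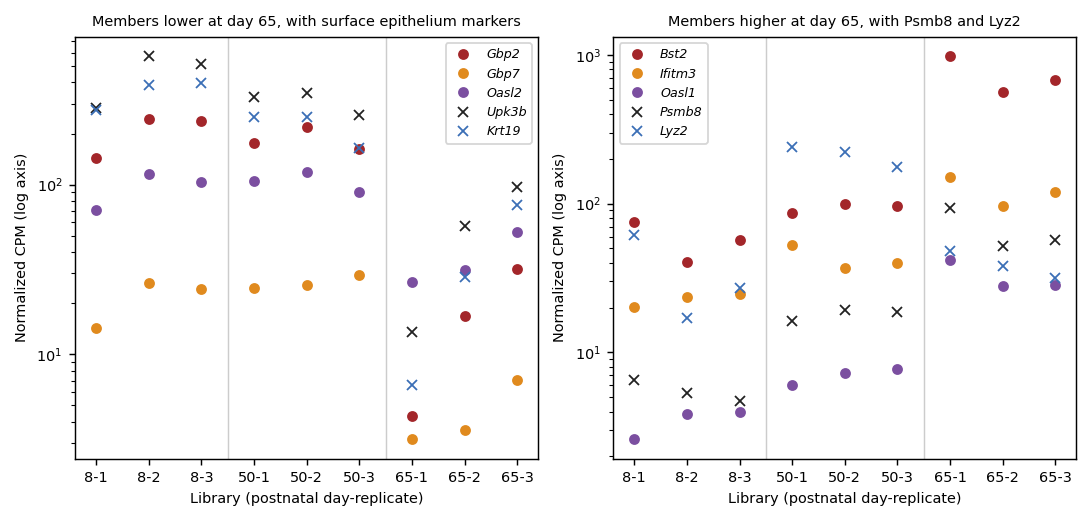
Normalized CPM per library, on a log axis, of members that fell after day 50 beside the surface epithelium markers Upk3b and Krt19 (left), and of members that rose beside the immunoproteasome gene Psmb8 and the macrophage marker Lyz2 (right). Circles are members and crosses are other genes, and labels give the postnatal day and replicate. At day 65 Gbp2, Gbp7, Oasl2, Upk3b and Krt19 are each lowest in replicate 1 and highest in replicate 3, and Bst2, Ifitm3, Oasl1 and Psmb8 are highest in replicate 1.

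The Mx genes, dynamin-like GTPases, were scarce. C57BL mice are known to carry a defective Mx1, and it was at 0.0563 to 0.345 CPM, below the filter. Without the filter Mx1 gave log2 fold changes of 0.79 to day 50 (adjusted p = 0.648) and 0.91 to day 65 (adjusted p = 0.537). Mx2 was 0.964, 1.16 and 1.46 CPM at day 8, 1.94, 1.5 and 1.73 CPM at day 50, and 2.07, 4.19 and 1.95 CPM at day 65. It was called between day 65 and day 8 alone (log2 1.18 ± 0.39, adjusted p = 0.023), and that call was lost without day 8 replicate 1 (1.05), day 8 replicate 2 (1.19) or day 65 replicate 2 (0.75). Scaled by library size alone it was 0.90 and did not pass.

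Of the 5 membrane and lipid effectors Bst2, Ifitm2 and Ifitm3 rose after day 50, and Bst2 had the largest change among them. Bst2 encodes tetherin, which holds budding virions at the cell surface. It was 74.7, 40.8 and 56.7 CPM at day 8, 86.6, 99.3 and 96.2 CPM at day 50, and 983, 563 and 683 CPM at day 65. Each age lay above the one before, with a late rise of 7.9-fold (log2 2.98 ± 0.27, adjusted p = 3.56e-05) and 13-fold over the whole interval (log2 3.69 ± 0.28, adjusted p = 4.11e-06). At day 65 its mean TPM of 1028 ± 167 (SD, n = 3) was the highest of the members, and the late log2 fold change was 2.31 with the length trend removed and 2.08 with both trends removed. The first step of Bst2 was close to the threshold (log2 0.71, adjusted p = 0.0432), and it was lost without day 8 replicate 2 (0.54), day 8 replicate 3 (0.74), any of the day 50 libraries (0.81, 0.71 and 0.75 for replicates 1, 2 and 3) or day 65 replicate 3 (0.72).

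The IFITM genes, neighbours on chromosome 7 that encode small membrane proteins blocking viral entry, did not move as 1 cluster. Ifitm3 was 20.2, 23.4 and 24.5 CPM at day 8, 53.1, 37.1 and 40.0 CPM at day 50, and 152, 96.8 and 119 CPM at day 65. It rose at both steps with no overlap, by 2.83-fold in the second (log2 1.5 ± 0.19, adjusted p = 0.000178), which was 0.75 with the length trend removed (adjusted p = 0.0193). Ifitm2, the most abundant member at day 50 with a mean of 900 TPM, was 172, 147 and 167 CPM, then 319, 301 and 263 CPM, then 538, 352 and 389 CPM. Its first step was 1.82-fold (log2 0.86 ± 0.18, adjusted p = 0.00357). Its second (log2 0.53, adjusted p = 0.0272) was lost without day 50 replicate 2 (0.55), day 50 replicate 3 (0.45) or day 65 replicate 1 (0.33), and turned to -0.23 with the length trend removed and -0.34 with both trends removed. In GENCODE M21, 40.9% of the exon bases of Ifitm2 overlap Gm45717 on the same strand, so the reads of that stretch are shared by estimation. Ifitm1, on the opposite strand between its relatives, fell from 26.1, 19.7 and 26.1 CPM to 12.9, 8.30 and 10.7 CPM and stood at 8.79, 15.4 and 14.1 CPM at day 65. It was the only member that fell in the first step (log2 -1.17 ± 0.24, adjusted p = 0.00337), and its later ages overlapped. Rsad2, which encodes the antiviral enzyme viperin, was at 0.746 to 4.58 CPM and passed in no comparison.

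Within the ISG15 and ubiquitin system the modifier itself passed no test. Isg15 encodes a ubiquitin-like protein that is among the most strongly induced by interferon in many cell types. It was 4.75, 4.71 and 3.99 CPM at day 8, 5.43, 4.74 and 2.60 CPM at day 50, and 4.23, 2.94 and 6.04 CPM at day 65. All 3 ages overlapped, with log2 fold changes of -0.08 ± 0.35 to day 50 (adjusted p = 0.884) and 0.05 ± 0.35 to day 65 (adjusted p = 0.905). Usp18, the protease that removes Isg15 from proteins and blocks the type I receptor, was 1.26, 1.63 and 1.29 CPM at day 8, 20.2, 15.7 and 13.5 CPM at day 50, and 17.6, 12.7 and 12.9 CPM at day 65. Day 8 lay far below both later ages, an 11.7-fold rise to day 50 (log2 3.55 ± 0.25, adjusted p = 5.30e-06), and the later ages overlapped (log2 -0.19, adjusted p = 0.467).

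Trim25, the ubiquitin ligase that activates RIG-I, was 46.3, 51.4 and 47.1 CPM at day 8, 68.1, 69.2 and 80.9 CPM at day 50, and 134, 85.5 and 114 CPM at day 65. In CPM it rose at both steps without overlap, by 2.31-fold over the whole interval (log2 1.21 ± 0.17, adjusted p = 0.000144). Mean TPM was 15.4, 24.9 and 20.2 in age order, and the shorter weighted effective length of the day 65 libraries enters the last value. Its second step was log2 0.61 (adjusted p = 0.00948), 1.40 with the length trend removed and 0.34, not past the threshold, with scaling by library size alone. Trim25 is 4978 bases long, against a median of 1028 bases over the 6 members that rose in that step.

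Dtx3l and Parp9, partner proteins whose genes overlap head to head on chromosome 16, rose to day 50 and fell again. Dtx3l was 13.2, 22.9 and 18.5 CPM, then 29.7, 32.7 and 35.9 CPM, then 16, 19.8 and 16 CPM. Day 50 stood above both other ages, by log2 0.85 ± 0.20 from day 8 (adjusted p = 0.00665) and with -0.93 ± 0.20 to day 65 (adjusted p = 0.00299). Parp9 was 19.7, 22.2 and 21.5 CPM, then 26.8, 33.6 and 29.2 CPM, then 19.9, 24.0 and 19.1 CPM. Its first step was log2 0.50 (adjusted p = 0.0206) and its second -0.51 (adjusted p = 0.0141). The first was lost without day 50 replicate 2 (0.45), and the second without day 50 replicate 2 (-0.41) or day 65 replicate 3 (-0.44). Scaled by library size alone, the first step of Parp9 was 0.46, not past the threshold. With the length trend removed the second step was -0.16 for either gene, not past the threshold. No source used here gives the strand setting of the counting, and 8% of the exon bases of Dtx3l and 9.4% of those of Parp9 overlap the other gene on the opposite strand. Parp14, a larger relative nearby, rose to day 50 (log2 0.88 ± 0.25, adjusted p = 0.0172) within a range of 7.49 to 23.7 CPM over all libraries.

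The remaining members are induced proteins of mixed or less settled function. Rtp4, a chaperone of receptor transport, was 4.38, 6.69 and 6.02 CPM at day 8, 12.1, 11.9 and 12.4 CPM at day 50, and 6.30, 7.52 and 6.90 CPM at day 65. Its day 50 libraries stood clear of both other ages, with log2 1.08 ± 0.21 up (adjusted p = 0.00223) and then -0.81 ± 0.21 (adjusted p = 0.0077). Ifi27, a small hydrophobic protein, was 39.0, 29.3 and 30.4 CPM, then 61.5, 57.5 and 48.2 CPM, then 59.1, 57.8 and 54.3 CPM. It rose 1.69-fold by day 50 (log2 0.76 ± 0.15, adjusted p = 0.00225), and its second step was 0.03, or -0.59 with the length trend removed. Ifi44 was 0.742, 1.22 and 0.844 CPM, then 2.06, 2.45 and 2.24 CPM, then 0.580, 0.720 and 0.805 CPM. It fell 3.16-fold after day 50 (log2 -1.66 ± 0.37, adjusted p = 0.00349), and its earlier rise (log2 1.25, adjusted p = 0.0176) was lost without day 8 replicate 3 (1.23) or day 50 replicate 2 (1.24).

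Ifi35 was 12.0, 8.73 and 10.5 CPM at day 8, 16.4, 13.5 and 13.3 CPM at day 50, and 27.9, 19.0 and 19.5 CPM at day 65. Its ages did not overlap, and it rose 2.13-fold from day 8 to day 65 (log2 1.09 ± 0.20, adjusted p = 0.000973). Its second step alone (log2 0.62, adjusted p = 0.0234) was lost without day 50 replicate 2 (0.58), day 50 replicate 3 (0.56) or day 65 replicate 1 (0.42), and with the length trend removed (0.33). Xaf1, a pro-apoptotic protein, was at 5.04 to 8.35 CPM and passed in no comparison in the main setting. With the length trend removed it passed in both steps (log2 0.78, adjusted p = 0.0256, and -0.88, adjusted p = 0.0132). Exons of another annotated gene cover 16.8% of Ifi35 and of Adar on the opposite strand, and 13.9% of Rtp4 and 11.3% of Gbp7 on the same strand, so part of their reads is uncertain.

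Gene length moved with the late changes over the whole transcriptome, and the members took part in it. From day 50 to day 65 the median log2 fold change of all genes was 1.01 for 2732 genes under 1000 bases and -0.57 for 5766 genes of 3000 bases or more. For the members it was 0.27 over 7 short genes, -0.16 over 16 of 1000 to 3000 bases and -0.73 over 14 long ones. With the length trend removed the medians of the members were -0.44, -0.23 and -0.16, and those of all genes 0.33, 0.13 and 0.05. The counts were then 5 higher and 13 lower among the members, and 5314 higher and 3516 lower among all 17747 genes. In the main setting all genes gave 4883 higher and 5033 lower. Calls that held in each of the 18 alternative settings numbered 13 of 22, and they were those of Ddx58, Ifih1, Irf9, Ifit1, Oasl1, Oasl2, Gbp2, Gbp3, Gbp7, Bst2, Ifitm3, Ifi44 and Rtp4.

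**Figure D4:**
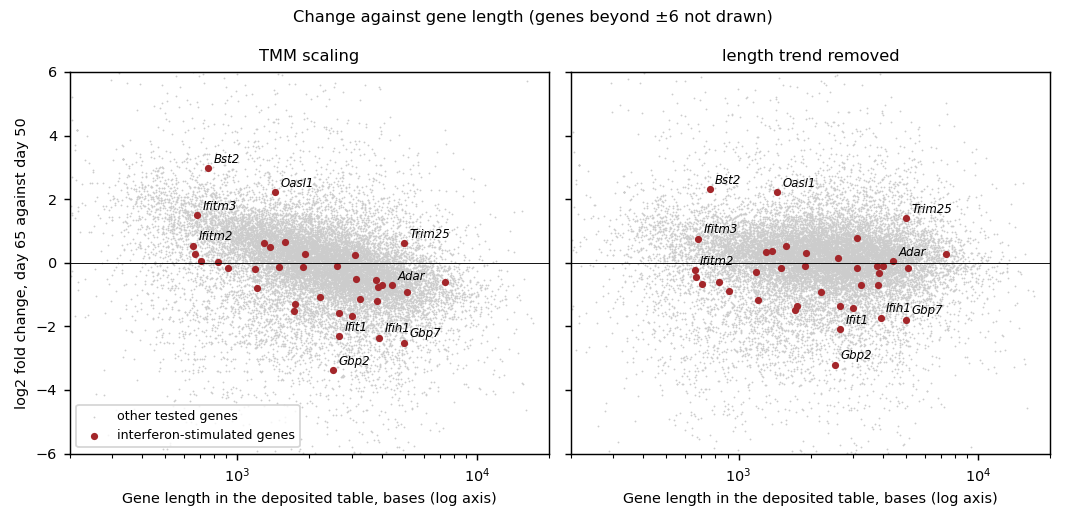
Log2 fold change from day 50 to day 65 against gene length, on a log axis, for the members (red) and the other tested genes (grey), with TMM scaling (left) and with each library's trend on length removed (right). Bst2 is at 2.98 and then 2.31, Trim25 at 0.61 and then 1.40, Adar at -0.70 and then 0.05, and Gbp2 at -3.38 and then -3.21.

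Interferons themselves were almost undetected. None of the 16 listed ligand genes passed the filter, and 13 were at 0 in every library, among them Ifnb1 and all listed alpha genes. Where an age had no count, a level of up to 0.0619, 0.0545 and 0.0671 CPM remains possible at day 8, 50 and 65, counting error only. Ifne reached 0.113 CPM in a day 8 library and was at 0 at day 65. Ifnz reached 0.115 CPM and Ifng 0.287 CPM, each in day 65 replicate 3 and at 0 in the other libraries of that age.

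Receptor and JAK-STAT genes were present at every age, and all 15 were tested. By day 50 6 rose and 2 fell, and from there to day 65 3 rose and 9 fell. Of all genes 19.5% were called higher and 21.4% lower in the first step, and 27.5% and 28.4% in the second. Ifngr1, the ligand-binding chain of the interferon gamma receptor, was 40.9, 38.7 and 43.1 CPM at day 50 and 216, 170 and 113 CPM at day 65, a 2.02 ± 0.23 log2 rise (adjusted p = 0.000103). Il10rb, a chain shared with the lambda receptor, went from 33.1 ± 6.95 to 78.9 ± 5.31 and 39.2 ± 2.54 CPM (SD, n = 3 per age). Jak2 fell at both steps, from 79.5 ± 15.4 to 38.2 ± 2.31 and 23.8 ± 0.393 CPM.

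The genes that sense nucleic acids upstream of interferon rose in 7 and fell in 2 of 17 tested cases by day 50, and rose in 2 and fell in 8 by day 65. The shares over all genes, higher and lower, were 19.5% and 21.4%, then 27.5% and 28.4%. Cgas, the DNA sensor, fell from 8.50 ± 1.05 to 2.34 ± 0.677 CPM and rose to 5.24 ± 0.802 CPM. Tlr3, a sensor of double-stranded RNA, was 5.96 ± 1.13, 11.0 ± 0.700 and 3.40 ± 0.438 CPM, called at both steps as were Ddx58 and Irf9. Tlr8 was at 0 in all 3 day 65 libraries after 0.743, 1.00 and 0.866 CPM at day 50.

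Of 35 other tested interferon-induced genes outside the set, 13 rose and 2 fell by day 50, and 7 rose and 15 fell by day 65. Background shares over all genes were 19.5% higher and 21.4% lower, then 27.5% and 28.4%, here and for the interferon gamma genes below. The late changes went both ways, with Psmb8 and Psmb9, immunoproteasome subunits, on the rising side. Psmb9 went from 5.92 ± 0.910 to 11.4 ± 0.495 and 55.3 ± 15.0 CPM, with a late log2 fold change of 2.27 ± 0.20 (adjusted p = 3.57e-05). On the falling side Rnf213 went from 322 ± 50.7 to 54.4 ± 15.8 CPM after day 50 and Znfx1 from 88.8 ± 6.89 to 21.5 ± 4.29 CPM. Among 16 tested genes known mainly for induction by interferon gamma, 5 rose and none fell by day 50, and 1 rose and 8 fell by day 65. The riser, Serpina3g, went from 18.6 ± 3.32 to 74.6 ± 10.2 CPM, and the fallers included the relatives Gbp4 (4.27 ± 0.691 to 0.795 ± 0.310 CPM) and Gbp9 (13.9 ± 0.269 to 2.26 ± 1.46 CPM).

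Of 13 tested macrophage markers 7 rose by day 50 and none fell, and 7 fell by day 65 and none rose. Over all genes the shares were 19.5% higher and 21.4% lower, then 27.5% and 28.4%. Summed TPM of the macrophage markers spanned 90.2 to 119, then 508 to 653, then 116 to 209 in age order. Lyz2, a macrophage lysozyme, was 61.7, 17.1 and 26.9 CPM, then 242, 222 and 177 CPM, then 47.9, 37.9 and 31.8 CPM. C1qa, a complement subunit made by macrophages, took another course, with 77.8, 25.8 and 56.0 CPM at day 65 after 30.2 to 40.5 CPM at day 50 (log2 0.64, adjusted p = 0.135). Its partner subunits had lower means at day 65, C1qb 30.1 CPM after 35.7 CPM and C1qc 26.3 CPM after 38.8 CPM. At day 65 these subunits and C1qa were highest in replicate 1 and lowest in replicate 2, the order of the 6 members that rose. Other macrophage markers were mixed. Cd68 (24.1, 8.83 and 12.9 CPM) shared that order, Lyz2 and Adgre1 were lowest in replicate 3, and Mertk (4.89, 9.95 and 6.96 CPM) was lowest in replicate 1. The order was not confined to macrophage markers, since the granulosa marker Foxl2 (529, 396 and 474 CPM) had it too. Markers of T and NK cells summed to 2.37 to 9.48 TPM, of B cells to 1.03 to 6.25 TPM and of plasmacytoid dendritic cells, a main source of interferon alpha, to 0.57 to 7.90 TPM over all libraries. Only 3 of the 13 T and NK cell markers were tested. From day 50 to day 65 mean Gzmb rose from 0.0361 to 1.73 CPM and Nkg7 from 0.383 to 1.08 CPM, while Cd4 fell from 3.81 to 0.298 CPM, all called. Neutrophil markers summed to 20.0 to 308 TPM at day 8 and 1.58 to 11.4 TPM later. Of the plasmacytoid dendritic cell markers Siglech was at 0 in all 3 day 65 libraries, whereas Klk1, the only one tested, was called higher at both steps (log2 2.83 and 1.72). The part of macrophages in the members' changes was not tested.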

How the data were processed

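The 9 libraries were grouped by the labelled postnatal age. The authors deposited 1 RSEM gene table per library, with expected counts per gene that are not normalized, per the file headers. The deposited TPM values are scaled by RSEM to effective length and library, and were used for levels between genes and ages and not for tests. Effective length in bases, per the file headers, is gene length corrected for fragment length. Per the submitters' processing notes the build was GRCm38 (mm10), and no source used here gives the aligner, versions or strand setting. RSEM divides reads that fit several genes, so members with near copies carry that uncertainty.

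Expected counts were rounded to whole numbers. Low counts were filtered with filterByExpr, libraries were scaled with TMM, and a model with a term per age over the 9 libraries was fitted in R 4.3.3 with edgeR 4.0.16 (quasi-likelihood test by glmQLFTest, two-sided, robust). Calls were made at 0.05 after Benjamini-Hochberg adjustment over 17747 genes. Total counts, 14116908 to 18868831 per library, set the precision. A count of 0 over an age allows 3 counts, and floors cover counting error only. The steps were tested on simulated data.

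The members and gene lists were chosen with earlier results of these data known. Every member could be named. Values in every library are given for up to 3 called members per role with the smallest p and for members whose direction differed between steps, with some others added after their values were seen. Of other lists up to 4 called genes per comparison, any interferon ligand with a count, and up to 2 markers per cell type could be named. Some markers were added after their values were seen. GENCODE M21 supplied exon overlap, GC content and strand, and RefSeq the promoter windows, which 9 members lacked. The alternatives were DESeq2 1.42.0 and its size factors, library size alone, no filter, the replicate number as a block, only the 2 ages compared, ribosomal and mitochondrial genes left out, a length trend removed through offsets (splines with 5 degrees of freedom), each library left out, and a length and GC trend chosen after seeing the data. The values of 1 gene of the receptor and signalling list are not reported here.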

Additional observations from a re-analysis of the deposited data

How the results depend on the processing

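Over 18 alternative settings, calls were kept in all of them by 13 of 20 members in day 50 against day 8, 13 of 22 in day 65 against day 50 and 18 of 22 in day 65 against day 8. The member counts moved beyond 1.5 times in few settings. With library size as the only scaling 3 members rose after day 50, not 6. With only the 2 ages compared 2 members fell by day 50, not 1, the second being Ifit2 (log2 -0.68), and without day 65 replicate 1 it was again Ifit2 (-0.67). Leaving out 1 library at a time gave 14 to 22 higher and 1 to 2 lower by day 50, 4 to 6 higher and 14 to 17 lower after it, and 11 to 13 higher and 9 to 11 lower over the whole interval.

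Calls were gained as well as lost. With the length trend removed 9 of 111 member values passed that had not, without a change of sign, and 6 no longer passed. Those gained included both steps of Xaf1, the first steps of Dhx58 (1.38) and Ifit1 (1.00), and Parp14 between day 65 and day 8 (1.26). Reversals came with the length trend removed or with length and GC trends removed, and their cause was not tested. From day 50 to day 65 Adar turned to 0.05 and Ifitm2 to -0.23 with the former, Ifitm2 to -0.34 and Eif2ak2 to 0.08 with the latter, and Ifi27 to -0.59 and -0.60. Against day 8, day 65 turned to 0.14 for Adar, 0.40 and 0.58 for Parp9, 0.71 and 0.79 for Dtx3l, and with both trends to 0.44 for Ddx58 and 0.63 for Eif2ak2. These settings moved the median of all genes to between 0.10 and 0.25, and library size alone moved it to -0.31 and -0.34 in the comparisons with day 65.

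Same-numbered libraries of different ages did not deviate together, with correlations of -0.04 to 0.05, so no pairing by number was detected. With 3 libraries per age this cannot exclude a pairing, and the labels do not state one. The fit with the replicate block gave 19 higher and 1 lower, 6 higher and 16 lower, and 12 higher and 10 lower members, and changed none of the 111 member calls.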
